A study of Homo sapiens with 16 samples.

Results

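The serine, one-carbon and asparagine synthesis genes described here are PHGDH, PSAT1, PSPH, SHMT1, SHMT2, MTHFD1, MTHFD1L, MTHFD2, ALDH1L2 and ASNS. They were taken by symbol for the roles of their enzymes, and all 10 were listed among the 17738 genes of the table and passed the filter on low values. RNA was sequenced from H1 cells, a long-established line of human embryonic stem cells with wild-type genotype, after 24 h in 8 kinds of medium with 2 libraries each. The groups were E7 with 2-deoxyglucose (2DG) at 3 mM and E7 alone; E7 with TGFb at 1.74 ng/mL plus 2DG and with TGFb alone; E7 with Activin A at 100 ng/mL plus 2DG and with Activin A alone; and E7 with NODAL at 100 ng/mL plus 2DG and with NODAL alone. E7 is E8, a defined stem cell medium, from which TGFb was omitted, so FGF2, insulin and transferrin were shared by all groups. 2DG is a glucose analog that is taken up and phosphorylated but is not carried through glycolysis, and the added ligands all belong to the TGFb family and signal through SMAD2 and SMAD3. The comparisons ask how these transcripts responded to 2DG in each medium, whether a ligand changed that response, and what each ligand did without 2DG.

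Serine is built from phosphoglycerate, an intermediate of glycolysis, by PHGDH (a dehydrogenase), PSAT1 (an aminotransferase that draws on glutamate) and PSPH (a phosphatase), acting in that order. SHMT2 in mitochondria and SHMT1 in the cytosol split serine into glycine and a carbon unit carried by folate. In mitochondria MTHFD2 and MTHFD1L oxidise that unit and release it as formate, and ALDH1L2 can burn it to carbon dioxide with formation of NADPH. MTHFD1 carries out the dehydrogenase, cyclohydrolase and synthetase steps in the cytosol. ASNS makes asparagine from aspartate with glutamine as the nitrogen donor. Several of these genes are known targets of ATF4, a transcription factor whose translation increases when amino acids are short or unfolded proteins load the endoplasmic reticulum, and pluripotent stem cells divide fast and draw heavily on one-carbon units for nucleotides and methylation.

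The DNA motif most closely tied to ATF4 is the composite C/EBP-ATF element, searched here as TGATGNAA on both strands. It was shown because ASNS had one of the largest responses, and an amino acid response element of this kind is known in its promoter. Windows from 250 bases before to 50 bases after an annotated transcription start were read from RefSeq (GRCh38.p14), and 7 of the 10 genes matched, with 11 windows between them. For each motif, a gene that is not named held no match or had no window. The element was present in windows of 2 of those 7 genes, ASNS and MTHFD1L, against 4.46% of the 27305 genes with a window of this length. By window it was in 4 of 11, of which 3 hold the same MTHFD1L site, and in 3.62% of all 35116. The 30-base stretches around it are printed 5′ to 3′ on the strand of the gene, with the motif in capitals. The ASNS stretch lies on chr7:97872458-97872487, minus strand, with the motif beginning 68 bases before the start site, and the MTHFD1L stretch lies on chr6:150866346-150866375, plus strand.
ASNS: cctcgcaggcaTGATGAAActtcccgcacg
MTHFD1L: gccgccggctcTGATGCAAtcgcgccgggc
A second motif, the E-box CACGTG, a palindrome bound by MYC and related factors, is shown because it lay in the window of MTHFD1. It was found in windows of 2 of the 7 genes, MTHFD1, which fell with 2DG in E7, and MTHFD1L, which rose, against 8.77% of all genes with a window. By window it was in 4 of 11, of which 3 hold the same MTHFD1L site, and in 7.26% of all windows. It did not overlap the TGATGNAA match in MTHFD1L. The stretches are chr14:64388327-64388356 and chr6:150866321-150866350, both on the plus strand.
MTHFD1: cagtccctaagCACGTGggttgggttgtcc
MTHFD1L: acgcccggctcCACGTGcgcagccggccgc
These matches describe letters in a window and were not tested for binding. Both motifs were chosen for a gene of this list that holds them, so the shares do not test enrichment.

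All values are normalised reads, that is, read counts divided by 1 size factor per library, and recovered reads ranged from 14600479 to 17630329 per library. Nothing in the labels says that the 2 libraries of a group came from separate cultures, so the spread between them may be technical. The main test (limma) uses 1 estimate of that spread per gene, shared by all 8 groups, and not that of the compared groups alone. Libraries of the Activin A groups stood apart from each other: the chi-square per degree of freedom between replicates was 57.3 for Activin A and 15.8 for Activin A with 2DG, against 1.6 to 10.8 in the other 6 groups. The pluripotency genes POU5F1 (31406 to 63985), SOX2 (3935 to 5352) and NANOG (3700 to 6073) were abundant in all 16 libraries. Because RNA came from whole cultures, fewer cells of a type and less RNA per cell cannot be told apart.

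In E7 medium, 2DG raised 8 of the 10 transcripts and lowered 1, and SHMT1 was the one that did not pass the test. The rises reached 7.47-fold for ALDH1L2, 3.30-fold for ASNS, 2.87-fold for PSAT1 and 2.52-fold for SHMT2, and MTHFD1 fell to 0.821 of its level in E7. Across all 16714 genes tested, 14.6% were called higher and 14.8% lower in this comparison. The median log2 fold change was 1.03 over the 10 genes and -0.00 over all genes tested. The calls are from limma on log2(value + 1) with Benjamini-Hochberg adjustment, at an adjusted p under 0.05. The 8 genes that rose had both 2DG libraries above both E7 libraries, as did 34.1% of all genes tested. Together the 10 genes held 0.483 and 0.512% of all reads in the 2 libraries of E7 with 2DG, and 0.208 and 0.215% in those of E7.

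**Figure D1:**
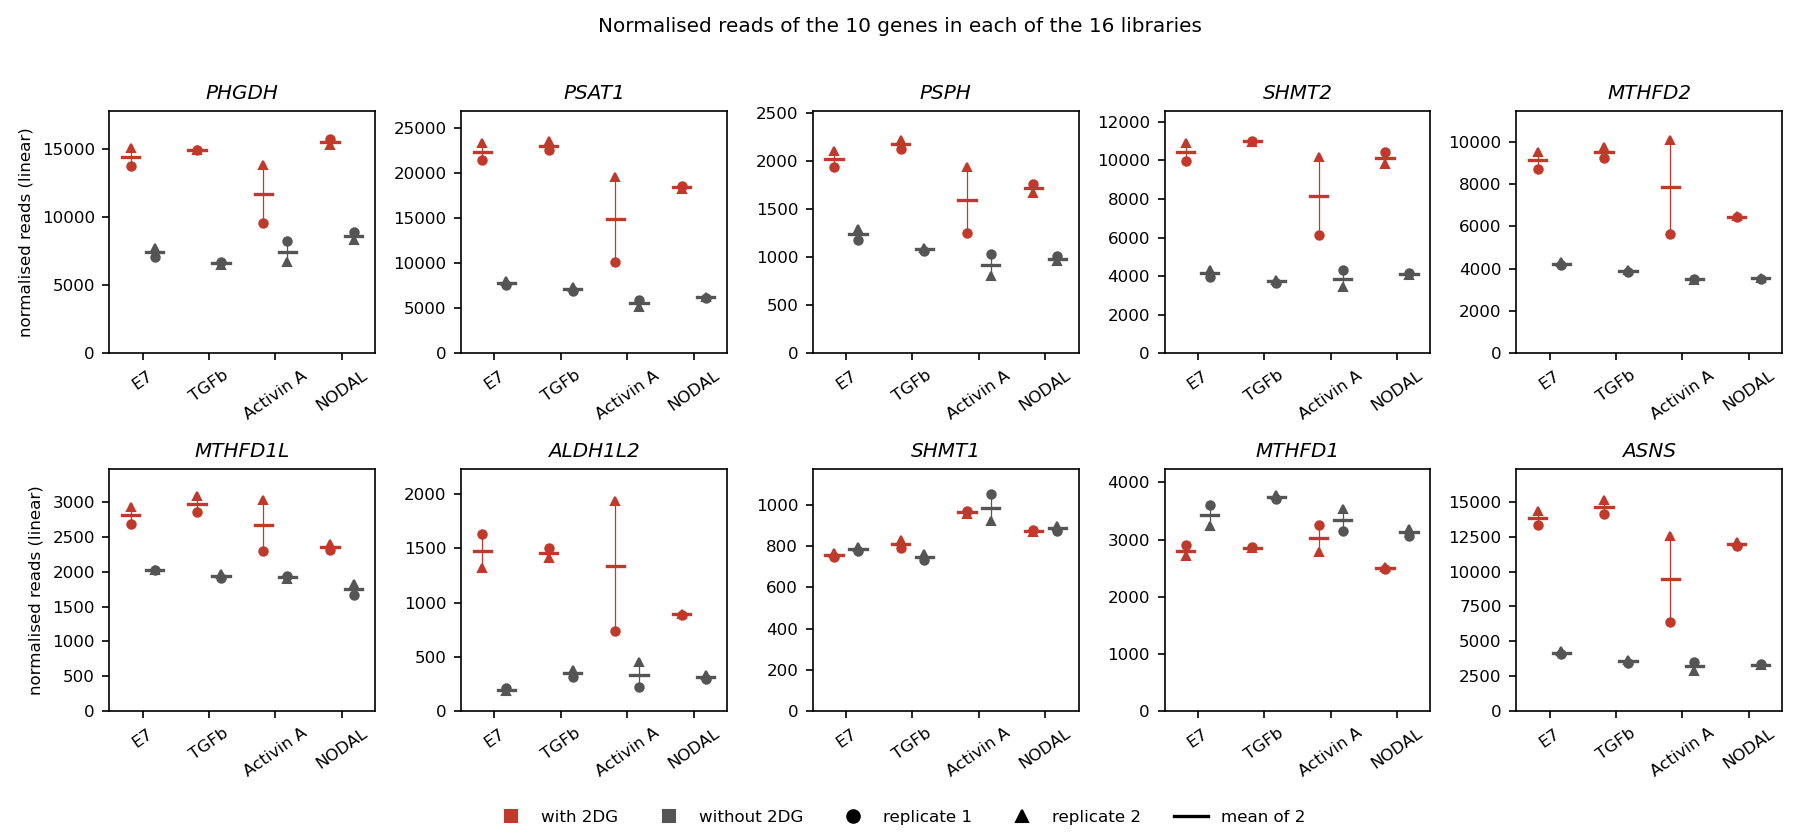
Normalised reads (linear axis, from 0) of each of the 10 genes in the 16 libraries, by medium, with 2DG in red on the left and without 2DG in grey on the right; circles are replicate 1, triangles replicate 2, and horizontal bars the mean of 2. The red points lie above the grey ones in every medium for PHGDH, PSAT1, PSPH, SHMT2, MTHFD2, MTHFD1L, ALDH1L2 and ASNS, and replicate 1 of Activin A with 2DG lies well below replicate 2 in these 8 panels.

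PHGDH (chromosome 1, 119648411 to 119744226, plus strand; GRCh38, GENCODE 29) catalyses the committed step from phosphoglycerate. It had 13758 and 15025 normalised reads in E7 with 2DG, against 7045 and 7725 in E7. With TGFb it had 14879.7 and 14877 with 2DG, against 6659 and 6495 without. The lowest 2DG library of these media lay far above the highest library without 2DG. The log2 fold changes of 0.96 (SE 0.14, adjusted p = 0.00069, limma) in E7 and 1.18 (SE 0.14, adjusted p = 0.00039) with TGFb correspond to 1.95-fold and 2.26-fold. With NODAL the gene had 15679.8 and 15241 with 2DG against 8886 and 8312 without, a log2 fold change of 0.85 (adjusted p = 0.0042). With Activin A it had 9515 and 13790.5 with 2DG against 8215 and 6660.0 without. The groups did not overlap there, but replicate 1 with 2DG was only slightly above replicate 1 without it, and the log2 fold change of 0.63 (adjusted p = 0.044) was the smallest of the 4. That call held in 11 of 26 alternatives (adjusted p 0.000897 to 0.883).

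PSAT1 (chromosome 9, 78297143 to 78330093, plus strand), the aminotransferase of the second step, had the highest level of the 10 genes per kilobase in E7 with 2DG. It reached 21452 and 23320.3 normalised reads in E7 with 2DG, against 7617 and 7997 in E7, and 22602 and 23522 with TGFb and 2DG, against 6907 and 7395 with TGFb. With NODAL it had 18608 and 18254 with 2DG and 6146 and 6225 without. In these 3 media the replicates were close together and the groups were far apart, with log2 fold changes of 1.52 in E7, 1.69 with TGFb and 1.57 with NODAL (SE 0.20 each). With Activin A the libraries with 2DG had 10127 and 19617, against 5913 and 5143 without, a log2 fold change of 1.35. The adjusted p was 0.00045 in E7, 0.00036 with TGFb, 0.0062 with Activin A and 0.00082 with NODAL.

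PSPH (chromosome 7, 56011051 to 56051604, minus strand), the phosphatase that completes the route, moved in the same direction by less. It had 1939 and 2096 normalised reads in E7 with 2DG, against 1179 and 1289 in E7, and its log2 fold changes were 0.71 in E7 (adjusted p = 0.0064), 1.00 with TGFb (adjusted p = 0.0022), 0.77 with Activin A (adjusted p = 0.033) and 0.80 with NODAL (adjusted p = 0.012). All 4 passed the test, and the call with Activin A held in 14 of 26 alternatives (adjusted p 0.000514 to 0.883). The pseudogene PSPHP1, which is listed separately with 117 to 275 normalised reads, resembles PSPH closely, so the split of reads between them is uncertain.

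SHMT2 (chromosome 12, 57229327 to 57234935, plus strand), the mitochondrial serine hydroxymethyltransferase, had 9974 and 10910.4 normalised reads in E7 with 2DG, against 3970.4 and 4329 in E7. With TGFb it had 11038 and 10947 with 2DG against 3652 and 3813 without, and with NODAL 10459.6 and 9798 against 4173 and 4050.3. The 2DG libraries of these media fell into a narrow band well clear of the others. The log2 fold changes were 1.33 in E7, 1.56 with TGFb and 1.30 with NODAL (SE 0.17 each), with adjusted p of 0.00038, 0.00018 and 0.00093. With Activin A the values were 6126 and 10162 with 2DG and 4296 and 3441 without (log2 1.04, adjusted p = 0.011).

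SHMT1 (chromosome 17, 18327860 to 18363563, minus strand), its cytosolic counterpart, had 747 and 767 normalised reads in E7 with 2DG, against 776 and 797 in E7. With NODAL it had 877 and 868 with 2DG against 876 and 897 without. Its log2 fold change ranged from -0.05 in E7 to 0.12 with TGFb, and it passed the test in none of the 4 media in limma, edgeR or DESeq2. The 95% interval in E7 was -0.25 to 0.14, which does not show that the level was equal. SMCR8 overlaps 2.69% of its exon bases on the other strand, and as the strand setting is not given in the sources used here, reads there cannot be assigned with certainty.

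MTHFD2 (chromosome 2, 74198562 to 74217565, plus strand), the mitochondrial dehydrogenase and cyclohydrolase, had 8720.1 and 9538 normalised reads in E7 with 2DG, against 4149 and 4331 in E7. With TGFb it had 9244 and 9760.0 with 2DG against 3852 and 3944 without, and with Activin A 5628 and 10083 against 3510.5 and 3484. With NODAL the libraries with 2DG had 6452 and 6474, below every 2DG library of E7 and TGFb, while those without 2DG had 3522 and 3541. The log2 fold changes were 1.11 in E7 (adjusted p = 0.0011), 1.28 with TGFb (adjusted p = 0.00085), 1.11 with Activin A (adjusted p = 0.0094) and 0.87 with NODAL (adjusted p = 0.013). The interaction of 2DG with NODAL was -0.23 (SE 0.25, adjusted p = 0.59). It was called in 1 of 27 alternatives, without the 4 Activin A libraries (SE 0.086, adjusted p = 0.048, over the 27 alternatives 0.048 to 0.761). In that fit 2323 of 16512 genes were called higher and 2488 lower for this interaction. SLC4A5, listed with 6.70 to 20.6 normalised reads, overlaps 27.2% of the exon bases of MTHFD2 on the other strand.

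MTHFD1L (chromosome 6, 150865549 to 151101887, plus strand), the mitochondrial formate-releasing synthetase, had a smaller response. It had 2689 and 2933 normalised reads in E7 with 2DG, against 2020.1 and 2019 in E7, a 1.39-fold difference (log2 0.48, adjusted p = 0.0074), and 2862 and 3088 with TGFb and 2DG, against 1917 and 1961 with TGFb (log2 0.62, adjusted p = 0.0046). With NODAL the log2 fold change was 0.43 (adjusted p = 0.038), a call that held in 15 of 27 alternatives (adjusted p 2.63e-06 to 0.241). With Activin A it was 0.46 and did not pass the test (adjusted p = 0.057), although all 4 libraries of that comparison kept the groups apart. The E7 call was lost without E7 with 2DG replicate 2 (adjusted p = 0.063) or E7 replicate 2 (adjusted p = 0.055), against a range of 2.39e-05 to 0.0633 over the 27 alternatives.

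ALDH1L2 (chromosome 12, 105019784 to 105084577, minus strand), the mitochondrial formyltetrahydrofolate dehydrogenase, had the lowest level of the 10 genes per kilobase of principal transcript and the largest fold change in E7. It had 1637 and 1322 normalised reads in E7 with 2DG, against 211 and 183 in E7. With TGFb it had 1501 and 1411 with 2DG against 316 and 378 without, and with NODAL 888 and 897 against 293 and 333. The E7 libraries without 2DG were the lowest of all 16. With Activin A the spread was wide, at 737 and 1942 with 2DG against 220.5 and 452 without. The log2 fold changes were 2.90 in E7 (SE 0.35, adjusted p = 0.0003), 2.07 with TGFb (adjusted p = 0.0031), 1.92 with Activin A (adjusted p = 0.018) and 1.51 with NODAL (adjusted p = 0.025).

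MTHFD1 (chromosome 14, 64388031 to 64463457, plus strand), the cytosolic enzyme that joins these steps, was the only one of the 10 with a lower level in 2DG that passed the test. It had 2898 and 2715 normalised reads in E7 with 2DG, against 3603 and 3244 in E7, and 2867 and 2844 with TGFb and 2DG, against 3702 and 3782 with TGFb. The log2 fold changes were -0.29 in E7 (adjusted p = 0.039) and -0.39 with TGFb (adjusted p = 0.022). With NODAL it had 2478 and 2513 with 2DG against 3061 and 3192 without (log2 -0.32, adjusted p = 0.062), and with Activin A the groups overlapped, at 3259.5 and 2778 against 3156 and 3533 (log2 -0.15, adjusted p = 0.39). The E7 call held in 13 of 27 alternatives (adjusted p 0.00156 to 0.20), and was lost in edgeR (adjusted p = 0.056), with the same total per library (adjusted p = 0.10) and when any 1 of the 12 libraries outside the Activin A groups was left out. The TGFb call held in 23 of 27, and was lost when any 1 of its 4 libraries was left out (adjusted p up to 0.148).

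ASNS (chromosome 7, 97852118 to 97872542, minus strand), whose promoter motif is printed above, had 13346 and 14330.4 normalised reads in E7 with 2DG, against 4088 and 4284 in E7. With TGFb it had 14166 and 15167 with 2DG against 3474 and 3642 without, and with NODAL 11832 and 12157 against 3372 and 3284. In all 3 media both 2DG libraries lay far above every library without 2DG. The log2 fold changes were 1.72 in E7 (SE 0.21, adjusted p = 0.0003), 2.04 with TGFb (adjusted p = 0.00011) and 1.85 with NODAL (adjusted p = 0.00034). With Activin A it had 6365 and 12590.1 with 2DG against 3546 and 2902 without (log2 1.48, adjusted p = 0.0048). The annotated gene AC079781.5 shares 44.6% of the exon bases of ASNS on the same strand, so reads there cannot be assigned to ASNS alone.

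Compared by medium, 2DG raised 8 of the 10 genes and lowered 1 with TGFb, where 5.47% of all genes tested were called higher and 4.37% lower. It raised 7 and lowered 0 with Activin A (1.48% higher and 0.221% lower), and raised 8 and lowered 0 with NODAL (3.11% higher and 2.76% lower). MTHFD1 had an unadjusted p under 0.05 with NODAL in limma, was called lower there by DESeq2, and was not called by edgeR. None of the 10 genes had a lower value with an unadjusted p under 0.05 with Activin A in limma, and edgeR and DESeq2 called 0 of the 10 lower. The median log2 fold change of the 10 genes was 1.23 with TGFb, 0.90 with Activin A and 0.86 with NODAL, and that over all genes tested lay within 0.005 of 0 in each. PHGDH, PSAT1, PSPH, SHMT2, MTHFD2, ALDH1L2 and ASNS passed the test in all 4 media. Both 2DG libraries lay above both libraries without 2DG for 9 of the 10 genes with TGFb and 8 with NODAL, as for 32.5 and 30.6% of all genes tested. Without 1 library the E7 count stayed between 7 and 9 and the TGFb count between 7 and 9. The NODAL count fell to 3 or 4 when any 1 of its own 4 libraries was left out, which left PSAT1, SHMT2 and ASNS called each time and PHGDH in some.

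**Figure D2:**
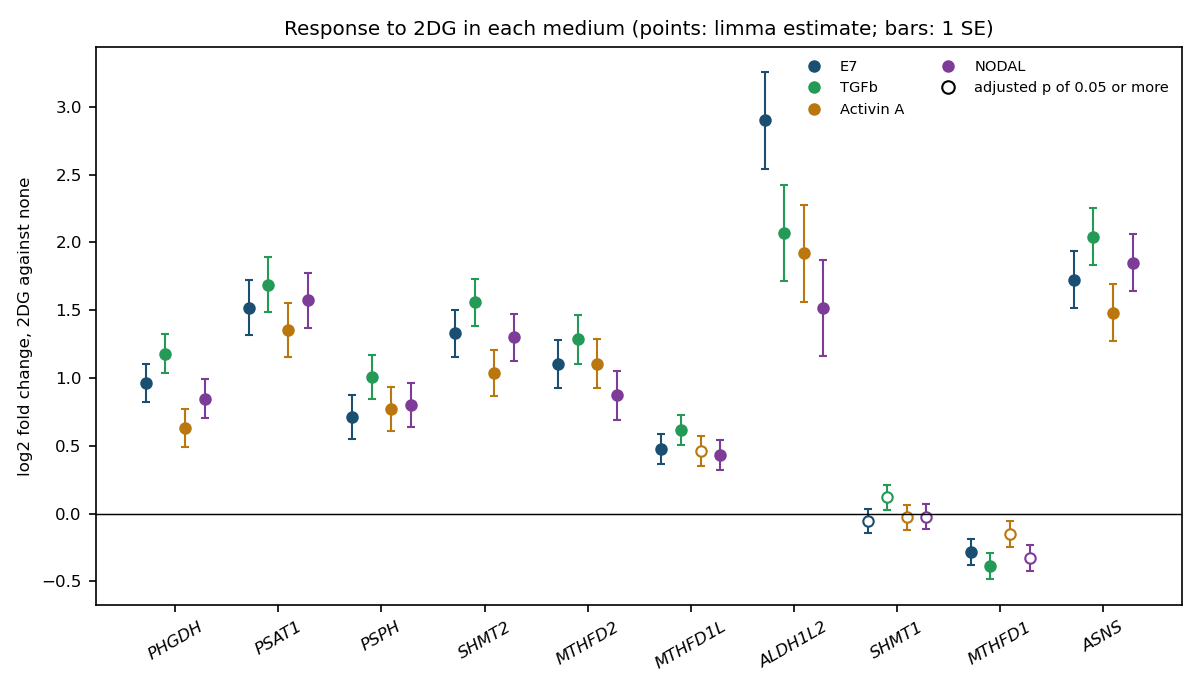
Log2 fold change of 2DG against no 2DG for each gene (limma estimates, bars 1 SE), with a colour for each medium and open circles where the adjusted p was 0.05 or more. SHMT1 lies near 0 and MTHFD1 below 0, and the other 8 genes lie above 0 in all 4 media, with ALDH1L2 spread from 1.51 with NODAL to 2.90 in E7.

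Whether a ligand changed the response to 2DG was asked with the interaction, the log2 fold change of 2DG in that medium minus the one in E7. None of the 10 genes passed the test with TGFb, Activin A or NODAL in limma, edgeR or DESeq2, and 1 (ALDH1L2 with NODAL) had an unadjusted p under 0.05. Over all genes the interaction was called for 0% with TGFb (2023 genes at an unadjusted p under 0.05, and 0 called by edgeR or DESeq2), 0.0419% with Activin A (all higher), and with NODAL for 0.987% higher and 0.885% lower. For ALDH1L2 the response was lower by 1.39 on the log2 scale with NODAL (SE 0.50, 95% interval -2.47 to -0.31, adjusted p = 0.11). This difference passed the test in 6 of 27 alternatives, all of which removed Activin A libraries from the fit (adjusted p 3.38e-05 to 0.313 over the 27). The intervals for other genes were wide, for instance -0.52 to 0.77 for ASNS and -0.56 to 0.67 for PSAT1 with NODAL, so differences within them could not be told from 0 in this fit. Without the 4 Activin A libraries, which varied most, the SE of these 2 interactions was 0.086 each. In that fit the interaction with NODAL was called for ALDH1L2 and MTHFD2, and the interaction with TGFb for ALDH1L2 (-0.83, adjusted p = 0.005, over all 27 alternatives 0.00497 to 0.878) and ASNS (0.32, adjusted p = 0.021, over all 27 alternatives 0.021 to 0.889). Such calls were common there. Of 16512 genes tested, 2323 were called higher and 2488 lower with NODAL, and 1073 higher and 1396 lower with TGFb.

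The 2 libraries of Activin A with 2DG disagreed on how far these genes had risen. Replicate 2 held 1.98 times the ASNS reads of replicate 1, 1.94 times those of PSAT1, 1.79 times those of MTHFD2, 1.66 times those of SHMT2 and 2.63 times those of ALDH1L2. The difference was smaller for PSPH (1.55), PHGDH (1.45) and MTHFD1L (1.32), and SHMT1 (0.984) and MTHFD1 (0.852) did not share its direction. Of all genes tested, 3.52% had a difference between these replicates further in this direction than ASNS and 1.23% further than ALDH1L2. The share was 3.80% for PSAT1, 4.95% for MTHFD2, 6.41% for SHMT2, 8.05% for PSPH, 10.3% for PHGDH and 15.2% for MTHFD1L. DDIT3 (2.48), TRIB3 (3.05) and CHAC1 (2.74), stress genes downstream of ATF4, differed in the same direction, and ATF4 itself by 1.09. Reads of mitochondrial genes made up 5.69% in replicate 1 and 5.78% in replicate 2, and the depth was 16880069 and 14963071 reads. The part of these measures in the difference was not tested.

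**Figure D3:**
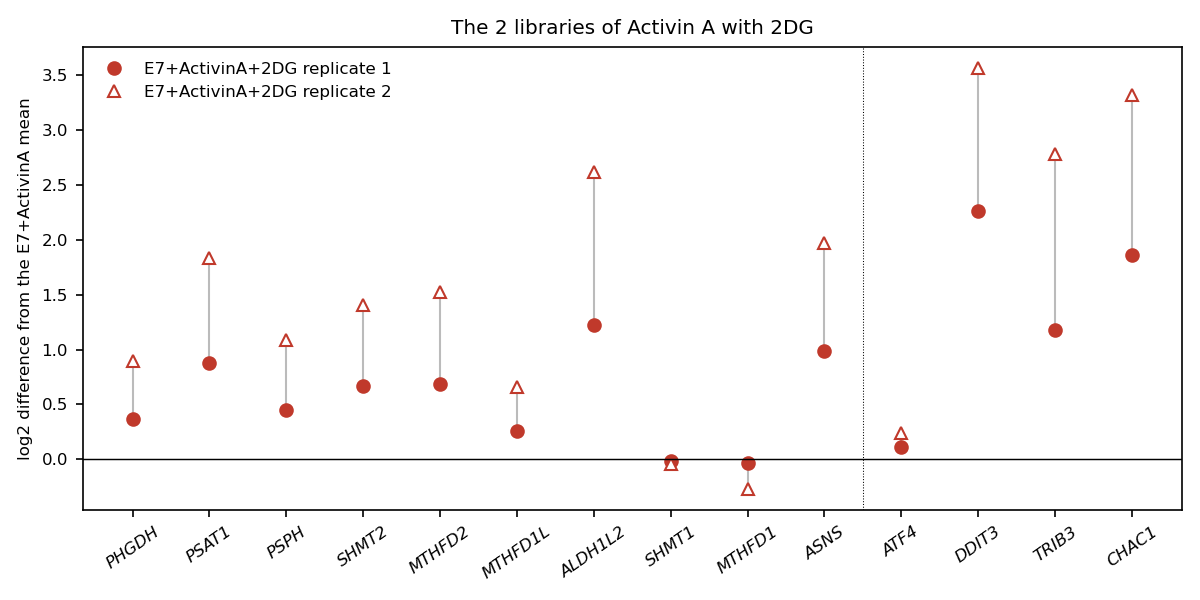
Log2 difference of each library of Activin A with 2DG from the mean of the 2 libraries with Activin A alone, for the 10 genes and, right of the dotted line, 4 genes of the ATF4 response; filled circles are replicate 1 and open triangles replicate 2. Replicate 1 lies between 0 and replicate 2 for the 8 genes that rose elsewhere, at 0.99 against 1.97 for ASNS.

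With replicate 1 as the only 2DG library, the log2 fold change with Activin A ran from 0.26 (MTHFD1L) to 1.22 (ALDH1L2) over the 8 genes that rose elsewhere. With replicate 2 as the only one, it ran from 0.66 (MTHFD1L) to 2.62 (ALDH1L2). SHMT1 and MTHFD1 were below 0 either way. With the 4 Activin A libraries fitted on their own, 0 of the 10 were called by limma, where 3 genes in all passed the test, and 7 had an unadjusted p under 0.05 (lowest adjusted p = 0.504, for ASNS). In the 4 libraries both values with 2DG lay above both without for 8 of the 10 genes, as for 17.2% of all genes tested.

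The pairs of enzymes that do the same chemistry in mitochondria and cytosol were compared within each library, where the size factor cancels. These ratios are of reads and are not corrected for gene length, so their change is compared and not their size. SHMT2/SHMT1 was 13.4 and 14.2 in E7 with 2DG, against 5.12 and 5.43 in E7, and 11.9 and 11.3 with NODAL and 2DG, against 4.76 and 4.51 with NODAL. MTHFD2/MTHFD1 was 3.01 and 3.51 in E7 with 2DG, against 1.15 and 1.34 in E7. MTHFD1L/MTHFD1 was 0.928 and 1.08 in E7 with 2DG, against 0.561 and 0.622 in E7. In every medium both libraries with 2DG had a higher ratio than both without, for all 3 pairs. Averaged over the 4 media the log2 ratio was higher in 2DG by 1.30 for SHMT2/SHMT1, 1.38 for MTHFD2/MTHFD1 and 0.78 for MTHFD1L/MTHFD1. Each had p = 0.00154 in a two-sided exact permutation of 2DG labels within media (1296 arrangements), the smallest p this design allows, and 0.00154 after adjustment over the 3 ratios. As the genes were chosen with earlier results of these data known, these p-values describe the separation of the libraries.

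**Figure D4:**
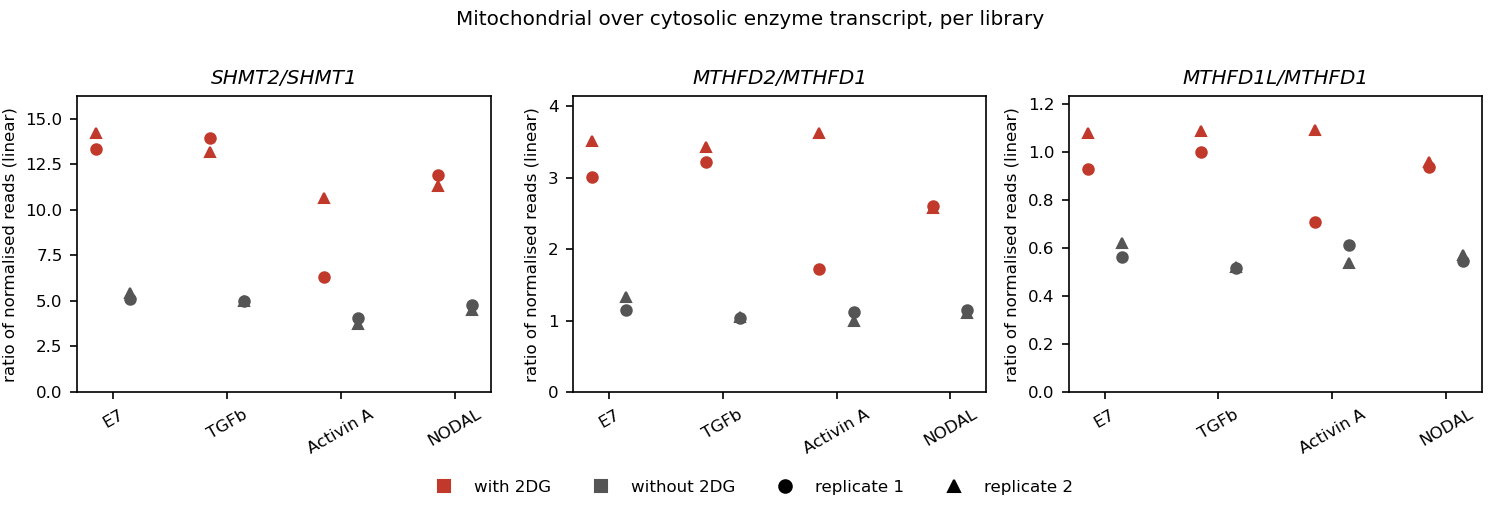
Ratio of normalised reads of the mitochondrial to the cytosolic enzyme in each library (linear axis, from 0), by medium, with 2DG in red on the left and without 2DG in grey on the right. All red points lie above the grey points of their medium, and replicate 1 of Activin A with 2DG is the lowest red point in each panel.

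Levels of different genes were compared per kilobase of the principal transcript in GENCODE 29. In E7 with 2DG the order was PSAT1 (10231 ± 604 normalised reads per kilobase, SD, n = 2), ASNS (5874 ± 295), PHGDH (5567 ± 347), SHMT2 (4116 ± 261), MTHFD2 (2049 ± 129.8), PSPH (926 ± 51.0), MTHFD1 (895 ± 41.1), MTHFD1L (780.0 ± 47.8), SHMT1 (307 ± 5.71) and ALDH1L2 (196 ± 29.5). In E7 it was PSAT1 (3568 ± 123), PHGDH (2857 ± 186), ASNS (1777 ± 58.8), SHMT2 (1636 ± 99.8), MTHFD1 (1092 ± 81.0), MTHFD2 (952 ± 28.8), PSPH (566 ± 35.8), MTHFD1L (560.3 ± 0.292), SHMT1 (319 ± 6.08) and ALDH1L2 (26.1 ± 2.62). ASNS and PHGDH, and PSPH and MTHFD1, differed by less than the larger of their 2 SDs in E7 with 2DG, as did PSPH and MTHFD1L in E7. MTHFD1 stood above MTHFD2 in E7 and below it in E7 with 2DG. The order depends on the transcript chosen: over all annotated exons PHGDH had 1561 normalised reads per kilobase in E7 with 2DG, below SHMT2 at 2158, and SHMT1 had 104, below ALDH1L2 at 174.

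Without 2DG, SHMT1 with Activin A was the 1 call among these genes for the 3 ligands. With TGFb in E7, 0 of the 10 were called by limma, edgeR or DESeq2. Over all genes 0% were called by limma, with 3771 at an unadjusted p under 0.05, and edgeR called 0 and DESeq2 204 higher and 91 lower. ALDH1L2 was the member with an unadjusted p under 0.05 there, at 316 and 378 with TGFb against 211 and 183 in E7 (log2 0.81, adjusted p = 0.20). It was called in 4 of 27 alternatives, with its own libraries alone or with Activin A libraries left out (adjusted p 0.000198 to 0.778 over the 27). Without the 4 Activin A libraries ASNS was also called lower with TGFb (log2 -0.23, adjusted p = 0.0088, 0.00882 to 0.862 over the 27). That fit called 2311 of 16512 genes higher and 2093 lower for TGFb. With Activin A, SHMT1 was called higher, at 1052 and 919.9 against 776 and 797 in E7 (log2 0.32, adjusted p = 0.035), where 5.28% of all genes were called higher and 4.74% lower. That call held in 11 of 26 alternatives (adjusted p 0.00646 to 0.577), and was lost, for instance, without E7 with Activin A replicate 1 (adjusted p = 0.084). PSAT1 (log2 -0.50, adjusted p = 0.15) and PSPH (log2 -0.43, adjusted p = 0.12) had an unadjusted p under 0.05. Both were called lower without replicate 1 of Activin A with 2DG, without its replicate 2 or without replicate 1 of Activin A alone.

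With NODAL in E7, 0 of the 10 were called by limma, edgeR or DESeq2 and none had an unadjusted p under 0.05, where 10.6% of all genes were called higher and 10.9% lower. The libraries did not overlap for PSAT1, at 6146 and 6225 with NODAL against 7617 and 7997 in E7 (log2 -0.34, adjusted p = 0.26), nor for ASNS, at 3372 and 3284 against 4088 and 4284 (log2 -0.33, adjusted p = 0.28), and 6 of the 10 genes lay wholly below E7 in this way, as did 32.9% of all genes tested. When the 4 Activin A libraries were left out of the fit, 7 of the 10 genes were called: PHGDH (log2 0.22) and ALDH1L2 (0.67) higher, and PSAT1, ASNS, PSPH (-0.33), MTHFD2 (-0.26) and MTHFD1L (-0.21) lower. Over all genes that fit called far more than the main one, 3208 of 16512 higher and 3266 lower. Scaled to the same total, SHMT1 was called higher with NODAL (log2 0.30, adjusted p = 0.024), and that scaling moved the median of all genes to 0.13.

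Genes around this pathway were counted against the 14.6% of all genes tested that were higher and the 14.8% that were lower in E7 with 2DG. Of 13 tested genes of the rest of the folate cycle, 1 rose and 4 fell. TYMS, which makes thymidylate, fell by 0.75 on the log2 scale, and GGH, a folate polyglutamate hydrolase, fell by 0.73. Of 5 genes of glycine use and cleavage, 0 rose and 2 fell (GLDC -0.43, DLD -0.41). Of 9 genes of the methionine cycle and transsulfuration, 1 rose and 2 fell, with CTH, the last enzyme of cysteine synthesis, higher by 1.17 (adjusted p = 0.0021) and MAT2B (-0.53) and AMD1 (-0.40) lower. The median log2 fold change was -0.42, -0.41 and 0.09 in these 3 lists, and with so few genes the counts say little beyond the genes named. CTH rose in all 4 media.

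Enzymes that share glutamate or aspartate with PSAT1 and ASNS had 3 of 15 genes higher and 4 lower, not far from those shares. ASS1, which joins aspartate to citrulline, had 6334 ± 52.6 normalised reads in E7 with 2DG and 1660.3 ± 94.6 in E7 (SD, n = 2 each; log2 1.93, adjusted p = 7.5e-05). GPT2, a mitochondrial alanine aminotransferase, rose by 1.44 and PYCR1, the mitochondrial proline synthesis enzyme, by 1.06, and OAT, which handles ornithine, fell by 0.80. Carriers and tRNA ligases for serine and asparagine had 5 of 13 genes higher and 1 lower. SLC1A4, a carrier of serine and other small amino acids, rose by 3.91 to 339 ± 43.4 in E7 with 2DG, against 21.8 ± 5.08 in E7. The neutral amino acid carriers SLC1A5 (1.07) and SLC38A1 (0.94) and the seryl-tRNA ligase SARS (1.14) also rose.

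Regulators of the ATF4 response had 8 of 12 genes higher and 0 lower in E7 with 2DG, against 14.6% of all genes tested higher and 14.8% lower. Their median log2 fold change was 1.31. ATF5, a relative of ATF4, rose by 3.68, DDIT3 by 3.25, TRIB3 by 2.88 and CHAC1, a glutathione-degrading enzyme, by 2.78. ATF4 mRNA had 9819.9 and 10500.4 normalised reads in E7 with 2DG, against 9251 and 9961 in E7 (log2 0.08, adjusted p = 0.64), and the libraries overlapped. It was higher in 2DG with TGFb (0.43, adjusted p = 0.038) and NODAL (0.54, adjusted p = 0.02), and had 0.17 (adjusted p = 0.43) with Activin A. Without 2DG it was lower with NODAL than in E7, at 6712 and 6085 against 9251 and 9961 (log2 -0.59, adjusted p = 0.0054), and with NODAL and 2DG it had 9365 and 9265. For 2DG with TGFb the same list had 8 higher and 1 lower, against 5.47% of all genes tested higher and 4.37% lower. The list had 7 and 0 with Activin A (1.48 and 0.221% of all genes), and 8 and 1 with NODAL (3.11 and 2.76%).

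Genes whose group means most resembled each member over the 8 groups, as the smallest root mean square difference of centred log2 means among 10707 genes, are named without further reading. PSAT1 was nearest to WARS (0.12) and ASNS (0.13), and ASNS to PSAT1 (0.13), SESN2 (0.19) and VEGFA (0.20). PHGDH was nearest to RASL10B (0.07) and the proline enzyme PYCR1 (0.08), SHMT2 to SARS (0.13), FUT1 (0.13) and CTH (0.15), and MTHFD2 to JDP2 (0.09) and the glycyl-tRNA ligase GARS (0.10). ALDH1L2 was nearest to ADM2 (0.14) and ZBED3 (0.16), PSPH to TCEA1 (0.07), MTHFD1L to SGMS1 (0.06), SHMT1 to BLCAP (0.05), and MTHFD1 to NCAPG2 (0.02), CAND1 (0.04) and TOP2B (0.05). Among the 10 genes, ALDH1L2 lay furthest from its nearest fellow member (ASNS, 0.42).

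Markers of cell division and of other cell types were counted against the same shares, 14.6% higher and 14.8% lower. Of 12 S phase genes tested, 0 rose and 7 fell in E7 with 2DG, with a summed level of 41631 to 43240.2 in E7 with 2DG and 56773 to 58005 in E7. Of the mesendoderm genes T, EOMES, MIXL1 and GSC, 3 of 4 fell (summed level 55.5 to 68.3 in E7 with 2DG and 184.8 to 202 in E7), and 4 of 4 rose with Activin A in E7 (1575 to 1715 with Activin A). The shares for Activin A in E7 without 2DG were 5.28% of all genes tested higher and 4.74% lower. Of 8 pluripotency genes 0 rose and 2 fell in E7 with 2DG, of 4 neuroectoderm genes 0 changed, and of 4 fibroblast genes 1 fell, with summed levels of 3237 to 3345 in E7 with 2DG and 4224 to 4259.5 in E7. No listed marker was at 0 in any library. The part of these differences in those of the 10 genes was not tested.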

How the data were processed

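Oligo(dT)-selected RNA was sequenced as paired ends on a NextSeq instrument, per the labels' protocols. Per the file headers and values, the authors deposited a normalised signal, in which each library's reads per gene were divided by a size factor of its own. The tools listed in the submitters' processing notes are STAR, Trimmomatic 0.36, DESeq2 1.26.0 and featureCounts 1.5.3, with build hg38. The roles of these tools, the annotation release and the strand setting are not given in the sources used here. All values (100%) were whole multiples of 1 read within 1e-06, so whole reads were recovered, 14600479 to 17630329 per library, and recomputed median-of-ratios factors equalled the divisors. Counting error is part of the spread between replicates, and a large part where the chi-square per degree of freedom was near 2 or below (1.6 with TGFb, 2.02 with NODAL and 2DG).

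The test was limma 3.58.1 (R 4.3.3) with an intensity trend on log2(value + 1), a scale that understates the change of low genes. One model of 8 group means covered all 16 libraries, with 1 estimate of the spread per gene shared by all groups. A gene was kept where 2 or more libraries reached a value of 10 (16714 genes). The p-values are two-sided, with Benjamini-Hochberg adjustment over all genes in each of 10 contrasts. Alternatives were TMM factors, the same total per library, pseudocounts of 0.5 and 8, no filter, a mean of at least 50, the replicate number as a block, fewer libraries in the fit, edgeR 4.0.16 (quasi-likelihood) and DESeq2 1.42.0 on recovered reads, and each library left out in turn, with the lone library of its group assumed to vary like the others. The fitting code was tested on simulated data.

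The genes and lists were chosen with earlier results of these data known, so no list was tested as a set. The text names the 10 genes in each comparison; up to 4 called genes of each other list, by absolute change for 2DG in E7; ATF4, DDIT3, TRIB3 and CHAC1; up to 3 tested genes of nearest pattern with a mean of at least 100; and defining markers. Some genes that this rule names are not reported here.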

Additional observations from a re-analysis of the deposited data

How the results depend on the processing

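The calls of PHGDH, PSAT1, PSPH, SHMT2, MTHFD2, ALDH1L2 and ASNS for 2DG in E7 and with TGFb held under all 27 alternatives, and so did those of PSAT1, SHMT2 and ASNS with NODAL. The 3 ratios kept their direction in all 20 alternatives each, which include no scaling, since it cancels, and their p was the smallest possible from the start. Leaving out 1 library gave log2 ratios of 1.21 to 1.40 for SHMT2/SHMT1, 1.25 to 1.51 for MTHFD2/MTHFD1 and 0.71 to 0.86 for MTHFD1L/MTHFD1. Of 2670 values of single genes under alternatives, 37 changed sign, and none of those was called either way. Counts of the 10 genes called changed most with the Activin A libraries, and the cause was not tested. The number of 2 libraries a group limits what can be called, since leaving out 1 removes the replicate of its group.

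Leaving out 1 library gave 7 to 9 genes called for 2DG in E7 and with TGFb, 3 to 8 with Activin A and 3 to 9 with NODAL. Without 2DG it gave 0 to 1 for TGFb, 0 to 5 for Activin A and 0 to 4 for NODAL, and 0 to 1 for the interactions with Activin A and NODAL (0 with TGFb throughout). Fitted on the libraries of the contrast alone, 0 genes were called for 2DG with Activin A, 1 for TGFb, 0 for Activin A and 5 for NODAL without 2DG, and 1 each for the interactions with TGFb and NODAL. Without the 4 Activin A libraries the counts were 2 for TGFb, 7 for NODAL and 2 each for the interactions with TGFb and NODAL. Of 16512 genes tested, that setting called 2311 higher and 2093 lower for TGFb, and 3208 and 3266 for NODAL. For the interactions it called 1073 and 1396 with TGFb, and 2323 and 2488 with NODAL. With the same total per library the NODAL count was 1.

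Changes of sign came with the same total per library for SHMT1 with 2DG in E7 (0.0033), SHMT2 with NODAL (0.11), MTHFD1 with Activin A (0.0078), and the interactions of PSAT1 with NODAL (-0.029), SHMT1 with Activin A (-0.016) and NODAL (-0.053) and MTHFD2 with Activin A (-0.040), and in edgeR for SHMT2 with NODAL (0.0061). With 1 library left out, the log2 fold change ranged from -0.12 to 0.068 for SHMT1 under 2DG with Activin A. For Activin A it was -0.15 to 0.16 in PHGDH, -0.27 to 0.051 in SHMT2 and -0.12 to 0.047 in MTHFD1, and for NODAL -0.074 to 0.050 in SHMT2. The interaction with Activin A ranged from -0.64 to 0.31 for PSAT1, -0.26 to 0.38 for PSPH, -0.070 to 0.12 for SHMT1, -0.66 to 0.071 for SHMT2, -0.21 to 0.18 for MTHFD1L, -0.42 to 0.42 for MTHFD2 and -0.74 to 0.25 for ASNS. That with NODAL ranged from -0.0040 to 0.12 for PSAT1, -0.096 to 0.034 for SHMT2, -0.12 to 0.036 for MTHFD1 and -0.11 to 0.021 for MTHFD1L.

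Replicate numbers did not pair the groups: the correlation of replicate differences was above 0.1 in 3 of 28 pairs of groups (-0.39 to 0.24). With the replicate number as a block, 0 genes were called for Activin A without 2DG, where SHMT1 was called before, and no other count of the 10 genes changed, although for 2DG with Activin A PHGDH lost its call (adjusted p = 0.059, limma) and MTHFD1L gained one (adjusted p = 0.047). Over all genes the interaction with NODAL then had 0 calls. The ratios had p = 0.00781 in an exact permutation of pairs, the smallest it allows.

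Over all genes, 4913 were called for 2DG in E7 (1590 to 7594 over the alternatives), 1644 with TGFb (370.0 to 6334), 284 with Activin A (3 to 5574) and 982 with NODAL (164 to 4822). Without 2DG it was 0 for TGFb (0 to 4404), 1675 for Activin A (79 to 4740.0) and 3601 for NODAL (836 to 6474). The interactions had 0 with TGFb (0 to 2469), 7 with Activin A (0 to 2148) and 313 with NODAL (0 to 4811). With the same total per library, NODAL without 2DG had 2675 higher and 916 lower, against 1780.0 and 1821, and its interaction 117 and 276, against 165 and 148.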
